A study of Homo sapiens with 8 samples.

Results

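Actin filaments give a cell its shape and pull on its surroundings, and the 10 genes described here encode parts of that machinery: the smooth muscle actins ACTA2 and ACTG2, the tropomyosins TPM1 and TPM2, the calponins CNN1 and CNN2, the transgelin TAGLN, the myosin regulatory light chain MYL9, and the adhesion and cross-linking proteins VCL (vinculin) and FLNA (filamin A). Tropomyosins lie along the filament and control which proteins reach it, calponins and transgelin bind it, myosin II moves it, filamin A links filaments into networks and vinculin ties them to sites where the cell holds its substrate. Many of these genes are regulated by the serum response factor SRF, whose coactivators leave the cytoplasm when free actin monomers are used up, so the set is known to respond to attachment and to serum.

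The genes were measured in H460, an established cell line from a non-small cell lung carcinoma, and in 2 populations made from it. H460C cells are the cancer stem cells of the study, grown as nonadherent spheres in a defined DMEM/F12 medium with EGF and bFGF and without serum. H460R cells are cisplatin-resistant cells, taken from cells exposed to cisplatin (0.5 µg/mL, 72 h) and then kept without the drug. H460 cells were adherent and grew in RPMI with serum, so attachment, medium, serum and growth factors differ together between H460C and H460. The paper names no other medium for H460R. Between H460C and H460R the exposure to cisplatin differs as well, and the effects of these factors cannot be told apart. Each population gave 2 RNA samples, and each sample was set against H460 RNA on 2 dual-color arrays, 1 with the studied cells in Cy3 and 1 with them in Cy5, which makes 8 arrays. Per the labels, H460 is 1 RNA sample, and they do not say whether the 2 samples of a population came from separate cultures, so the tests measure the spread between these samples, which may be technical, and leave out the spread of H460 itself. All H460C arrays were on 1 slide and all H460R arrays on another, and the effects of slide and of population cannot be told apart.

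Members were found by the transcript accession of each probe, which gave 19 probes for the 10 genes out of 41000 probes and 32642 gene names on the array. Of these, 16 probes and 8 genes passed the filter on dim spots, beside 26014 probes and 20317 gene names in all. ACTG2 and MYL9 did not pass, nor did the second probe of TAGLN. None of the 19 probes was saturated or held an outlier spot on any array. A value below is a log2 ratio of the studied cells over H460, so that 1 is a doubling, and single arrays are given from the authors' processed table. Means, standard errors and tests come from a new fit to the scanner intensities, which differed from the authors' table by a median of 0.0461 over the 19 probes and the 8 arrays. The largest difference was 0.366, for FLNA on 1 H460C array, and without that array it was 0.176.

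Between 22834 and 28499 probes per channel were well above background. Epithelial keratins KRT8, KRT18 and KRT19 were above background in all 8 H460 channels, EPCAM in 7 and CDH1 in 0, although CDH1 was above background in all 4 H460C channels. MYOCD, an SRF coactivator read here as a smooth muscle marker from its 1 probe, was above background in no channel of any array. MYH11 and DES, further smooth muscle markers, were above background in 0 of 8 H460 channels and in 4 of 4 H460C channels. The endothelial marker PECAM1 had the same counts, so the pattern was not particular to smooth muscle markers. The endothelial markers VWF and CDH5 were above background in 4 and 1 of 8 H460 channels and in 3 and 0 of 4 H460C channels. Of the blood markers, PTPRC was above background in no channel. CD14 and CD3E were above it in 8 and 6 of 8 H460 channels and in all 4 H460C channels. The 2 H460C samples differed by less than the noise of hybridization, since the differences between them on the 2 dye orientations were unrelated over 24642 probes (r = -0.0106, against 0.267 over 25713 probes for H460R). H460C is therefore given as 1 sample, with no SD, although the fits use both of its ratios. Leaving out 1 of them is among the alternatives.

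ACTA2, the alpha actin of smooth muscle and of contractile fibroblasts, was the member that set the populations furthest apart. On the 4 H460R arrays its log2 ratios were 1.45, 1.95, 1.38 and 1.35, and on the 4 H460C arrays they were -0.18, -0.02, -0.21 and -0.04. All H460R arrays thus lay above all H460C arrays. The share of all probes with the groups apart in this way was not counted. Such an order, here and for the members below, is therefore a description of the arrays and not a result. No H460C array was above 0 in the authors' table, while in the refit 2 were, by at most 0.013. The refitted mean was 1.60 ± 0.17 (SD, n = 2) in H460R, 3.03-fold above H460, which lay at percentile 99.4 of the 26014 probes tested. Rank Products, which asks whether a gene ranks near the top in every replicate, gave an FDR of 0.069, over the threshold of 0.05. That FDR was 0.0440 when dim probes were kept in the test and between 0.0524 and 0.159 under the other settings of that test. Limma, run as an alternative, called it (adjusted p = 5.31e-05). In H460C the mean was -0.08 (FDR 1). The H460C value was -1.68 below that of H460R (SE 0.09, limma adjusted p = 0.000175), a 3.21-fold difference. These are bulk samples, so more cells with ACTA2 RNA and more RNA per cell cannot be told apart.

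**Figure D1:**
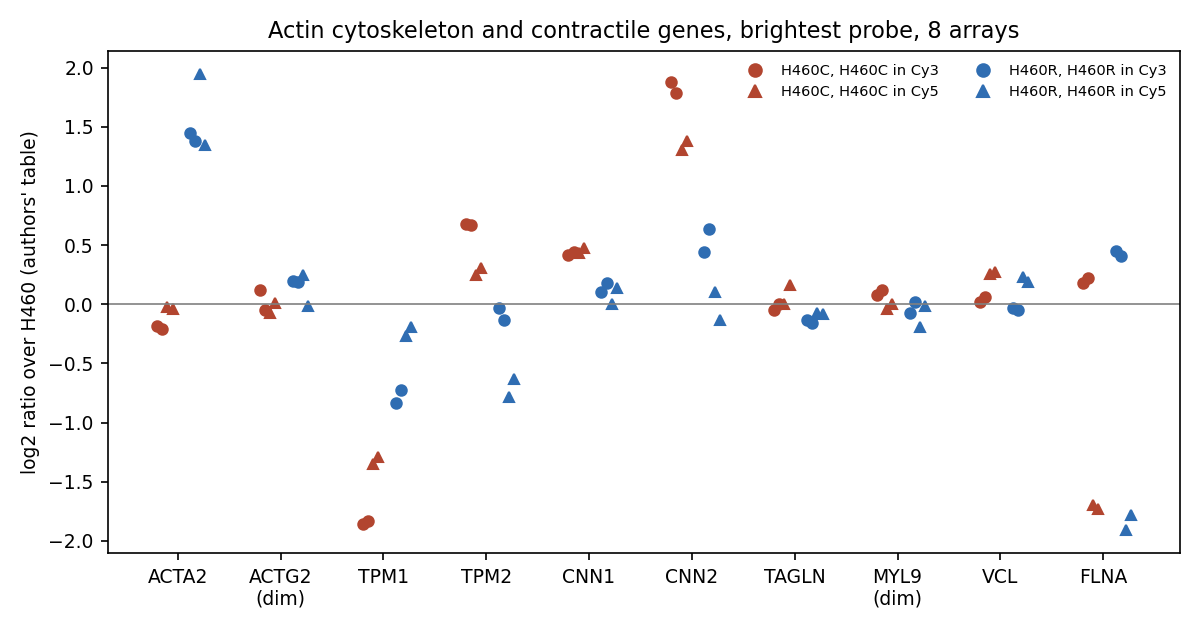
The 10 genes, each at its brightest probe, on the 8 arrays. The vertical axis is the log2 ratio over H460 in the authors' table, red points are H460C and blue points H460R, circles mark arrays with the studied cells in Cy3 and triangles those with them in Cy5. "Dim" marks genes that did not pass the filter. ACTA2 in H460R lies between 1.35 and 1.95, CNN2 in H460C between 1.30 and 1.88, and FLNA splits by dye in both populations.

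The ACTA2 probe was above background in all 16 channels. Of the cell type markers, those of fibroblasts were also measured, because fibroblasts express ACTA2. LUM, DCN, PDGFRB and THY1 were above background in all 8 H460 channels, and COL1A2 in 1. In H460R the log2 ratios were -1.01 for LUM, -0.60 for DCN, -0.45 for PDGFRB, 0.04 for COL1A2 and 0.04 for THY1. Their part in the ACTA2 ratio was not tested. Of the 5 smooth muscle markers, SMTN (0.22) and LMOD1 (-0.03) were above background in all 4 H460R channels, MYH11 in 3 of 4, and DES and MYOCD in 0. COL1A1 had no probe matched by accession here.

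ACTG2, the gamma actin of smooth muscle, has 1 probe and was not tested. It was above background in 0 of 8 H460 channels, 1 of 4 H460C channels and 2 of 4 H460R channels. Its log2 ratios ran from -0.07 to 0.12 on the H460C arrays and from -0.01 to 0.25 on the H460R arrays, so the groups overlapped. The refitted H460R level was 1.12-fold above H460. With H460 at background and H460R above it in only 2 of 4 channels, that value gives no lower bound. The refitted ratio of ACTG2 in H460R was 0.16 beside 1.60 for ACTA2, and no test was made between the genes.

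The tropomyosins TPM1 and TPM2 differed between the populations in opposite directions in the direct test. Against H460 neither passed Rank Products in either population. TPM1 has 6 probes, all of them above background in all 16 channels. At the brightest, designed on transcript NM_001018004, the H460C arrays read -1.86, -1.35, -1.83 and -1.29 and the H460R arrays -0.83, -0.27, -0.72 and -0.19. All 8 arrays were below 0, and the H460C arrays lay below the H460R arrays. The refitted mean was -1.54 in H460C, 2.91-fold below H460 (FDR 0.0965), at percentile 0.976 of all probes. In H460R it was -0.46 ± 0.08 (SD, n = 2; FDR 0.60). The direct difference was -1.08 (SE 0.07, limma adjusted p = 0.000231), and TPM1 was 2.11-fold lower in H460C.

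The 5 other TPM1 probes gave H460C means of -1.51, -1.22, -1.06, -0.77 and -0.21. One of them stood apart. The probe designed on NM_001018008, a further TPM1 transcript, read -0.05, -0.60, -0.04 and -0.48 on the H460C arrays and 0.87, 0.34, 0.93 and 0.13 on the H460R arrays. It was therefore near or below 0 in H460C and above 0 on every H460R array. In the refit it exceeded 4 of the other 5 TPM1 probes on 8 of 8 arrays, by 0.85 to 1.33 on average in H460C and by 0.87 to 1.23 in H460R. Against the remaining probe, A_23_P363344 on NM_000366, it was higher on 4 of 8 arrays. That probe itself depended on dye, with means of -1.27 in Cy3 and -0.28 in Cy5 for H460C. Across all 6 probes the difference between the populations was alike, from -0.80 to -1.08, and limma called each of them (adjusted p from 0.000231 to 0.000979). The 6 probes read the same RNA samples and are not replicates of a condition, and no test was made between probes.

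**Figure D2:**
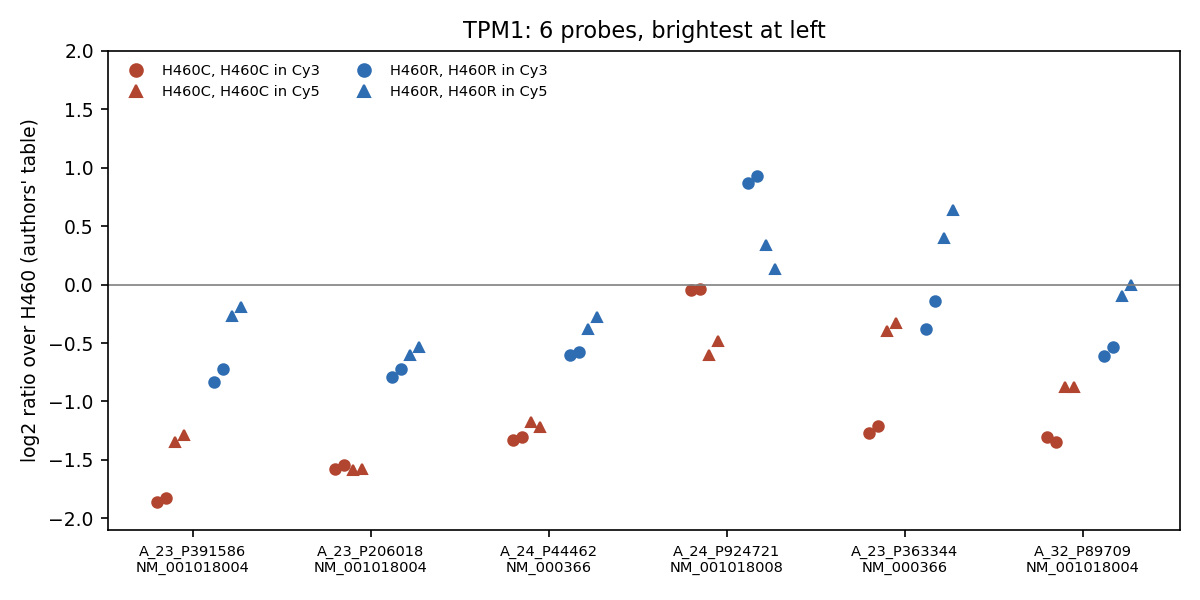
The 6 probes of TPM1, ordered by brightness, with probe name and transcript on the horizontal axis and the log2 ratio over H460 in the authors' table on the vertical axis. Red is H460C, blue is H460R, circles are arrays with the studied cells in Cy3 and triangles those with them in Cy5. The H460C mean of the plotted values runs from -1.58 at the first probe to -0.29 at the NM_001018008 probe, which is the only one with all 4 H460R arrays above 0.

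TPM2, the beta tropomyosin, read 0.68, 0.25, 0.67 and 0.31 on the H460C arrays and -0.03, -0.78, -0.13 and -0.63 on the H460R arrays at its brighter probe. Every H460C array was above 0 and every H460R array below it in the authors' table, while in the refit 1 H460R array was above 0, at 0.03. The H460C mean was 0.53, with an FDR of 0.70. For H460R it was -0.34 ± 0.03 (SD, n = 2; FDR 0.78). The difference of 0.87 (SE 0.06, limma adjusted p = 0.000289) made TPM2 1.82-fold higher in H460C. The second probe gave a smaller difference, 0.51 (SE 0.06, limma adjusted p = 0.00166), with the same order of the populations on all arrays. In H460R the size depended on dye, with a mean of -0.004 in Cy3 and -0.67 in Cy5 at the brighter probe.

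CNN2, a calponin found in many cell types outside smooth muscle, was the member furthest above H460 in H460C. Its brighter probe read 1.88, 1.30, 1.79 and 1.38 on the H460C arrays and 0.44, 0.10, 0.64 and -0.13 on the H460R arrays. No H460R array reached the lowest H460C array. The H460C mean was 1.64, 3.12-fold above H460, at percentile 98.6 of all probes, with an FDR of 0.129. The H460R mean was 0.32 ± 0.02 (SD, n = 2; FDR 0.92). The difference of 1.32 (SE 0.07, limma adjusted p = 0.000175) was 2.50-fold. The dimmer probe gave lower values throughout, 0.77 in H460C and -0.21 in H460R, and a difference of 0.98 (SE 0.07, limma adjusted p = 0.000325), in the same direction. CNN2 also depended on dye. At the brighter probe H460C read 1.96 in Cy3 and 1.32 in Cy5, and H460R 0.61 and 0.03. The dimmer probe read 1.18 and 0.36 in H460C and 0.07 and -0.50 in H460R, where the sign followed the dye. The difference between the populations was 1.35 in Cy3 and 1.29 in Cy5 at the brighter probe and 1.11 and 0.85 at the dimmer one. Beside these values, the H460 channel itself read 1.39 higher on the H460C slide than on the H460R slide at the brighter CNN2 probe, a gap exceeded by 0.396% of probes against a median of 0.209, and -0.04 apart at the dimmer one. That slide difference was also 0.62 for the brightest TPM1 probe (6.66% of probes larger) and 0.78 for the brighter VCL probe (3.26% larger). Its part in the differences of these genes was not tested.

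CNN1, the calponin of smooth muscle, was dim. It was above background in all 4 H460C channels and in 0 of 8 H460 and 0 of 4 H460R channels. The ratios were 0.42, 0.43, 0.44 and 0.48 on the H460C arrays and between 0.00 and 0.18 on the H460R arrays in the authors' table, which did not overlap, while in the refit the populations overlapped. With H460 below background, the mean over the H460C arrays gave a lower bound of 1.34-fold, with a Rank Products FDR of 0.77. In the refit the log2 ratios of single H460C arrays ran from 0.14 to 0.63. CNN1 passed the filter on dim spots only through H460C, the group where it is high, so this bound supports nothing. The same holds for its difference between the populations, 0.34 (SE 0.10, limma adjusted p = 0.0354), which is set against a probe at background. Of the 5 smooth muscle markers, MYH11, DES, LMOD1 and SMTN were above background in the same 4 H460C channels and MYOCD in none, and LMOD1 and SMTN, also above background in all 8 H460 channels, had H460C ratios of -0.08 and 1.35. Their part in the CNN1 value was not tested. The CNN1 call was lost without H460C replicate 2 (0.22, adjusted p = 0.121), without H460R replicate 1 (0.28, adjusted p = 0.173) and without H460R replicate 2 (0.41, adjusted p = 0.0885) in limma. The size also moved with background handling, to 0.52 with no background subtraction and to 2.61 with the scanner software's own ratio.

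TAGLN, a small actin-binding protein of smooth muscle and fibroblasts, was near H460 in both populations. Its tested probe read -0.05, 0.00, 0.00 and 0.16 on the H460C arrays and -0.13, -0.07, -0.16 and -0.08 on the H460R arrays. The groups did not overlap, yet the difference of 0.15 (SE 0.07) did not pass limma (adjusted p = 0.126). With the scanner software's ratio the difference was 0.47 (limma adjusted p = 0.0112). The second TAGLN probe was above background in no channel. MYL9, the regulatory light chain of myosin in smooth muscle and many other cells, was above background in no channel either, with ratios from -0.19 to 0.12, so its RNA was not detectable on these arrays.

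VCL, which joins actin to adhesion sites at the membrane, differed least between the populations after FLNA. The brighter probe read 0.02, 0.26, 0.06 and 0.27 on the H460C arrays and -0.03, 0.23, -0.05 and 0.19 on the H460R arrays, and the groups overlapped. The difference was 0.06 (SE 0.06, limma adjusted p = 0.378) at this probe and 0.17 (SE 0.06, limma adjusted p = 0.0513) at the other. Neither population passed Rank Products (FDR 1 for both).

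FLNA differed more between the dyes than between the populations. Its probe read 0.18 and 0.22 on the H460C arrays with the studied cells in Cy3 and -1.70 and -1.73 on those with them in Cy5. The H460R arrays read 0.45 and 0.41 in Cy3 and -1.91 and -1.78 in Cy5. The sign thus followed the dye and not the population. The gap between orientations was 1.84 in H460C, exceeded by 0.166% of probes, and 2.27 in H460R, exceeded by 0.0467%, against median gaps of 0.255 and 0.26. Opposite signs were found at 22.3% of probes in H460C and 21.5% in H460R. The averages were -0.64 (FDR 0.50) and -0.63 ± 0.002 (SD, n = 2; FDR 0.40). These means hold each dye once per sample, but the dye effect was not equal. In the refit H460C replicate 1 read 0.25 in Cy3 and -1.33 in Cy5, and H460C replicate 2 read 0.32 and -1.79. Limma called both means (adjusted p = 0.000332 in H460C and 0.000409 in H460R). It called 36.5% of all gene names higher and 34.5% lower in H460C, and 36.5% and 32.5% in H460R. The part of dye in these means was not tested. Each replicate alone was below 0, from -0.74 to -0.54 in H460C and at -0.63 in H460R for both. The sign on the Cy3 arrays alone was the opposite, 0.28 and 0.51. Between the populations the difference was -0.01 (SE 0.08, limma adjusted p = 0.917), with -0.22 on the Cy3 arrays and 0.20 on the Cy5 arrays.

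**Figure D3:**
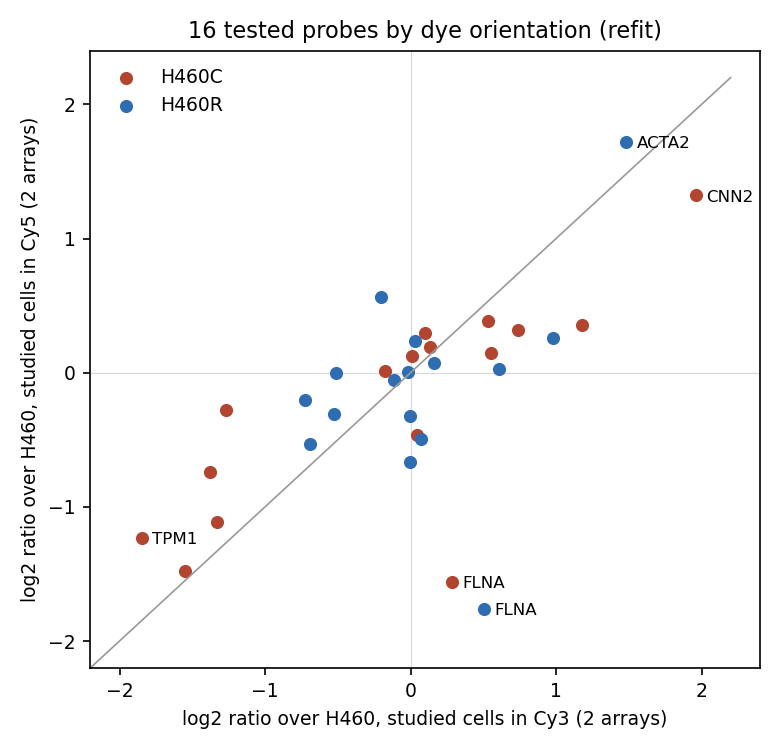
The 16 tested probes by dye. Each point is a probe in H460C (red) or H460R (blue), with the mean refitted log2 ratio of the 2 arrays with the studied cells in Cy3 on the horizontal axis and of the 2 arrays with them in Cy5 on the vertical axis, and the line marks equal values. ACTA2 (1.48 and 1.72) lies near the line, and FLNA in H460C (0.28 and -1.56) and in H460R (0.51 and -1.76) lies furthest from it.

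Counted over the set, none of the 8 tested members passed Rank Products in either population. Over all 20317 gene names the test called 0.556% higher and 0.502% lower in H460C, and 0.492% higher and 0.477% lower in H460R. At an unadjusted Rank Products p under 0.05, 3 members were found in H460C (CNN2, TPM1 and FLNA), against 19.2% of all gene names, and 2 in H460R (ACTA2 and FLNA), against 18.6%. That p is the smaller of the 1-sided tests for higher and lower, so more genes fall under 0.05 by chance than with a two-sided p. Limma, which weighs a ratio against the small spread between replicates, called 4 members higher and 2 lower in H460C, where it called 36.5% of all gene names higher and 34.5% lower. In H460R it called 3 higher and 3 lower, beside 36.5% and 32.5% of all gene names. With so large a background, those counts are not a result about the members.

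In the direct comparison of H460C with H460R, limma called CNN2 and TPM2 higher in H460C and ACTA2 and TPM1 lower. CNN1 was also called higher, but entered the test only through H460C. Limma called 28% of all gene names higher in H460C and 27.9% lower, so the share of members called was near the background. A limma test for a difference beyond 1 called ACTA2 alone (adjusted p = 0.0123), beside 1.28% of all gene names higher in H460C and 2.11% lower. CNN2 gave an adjusted p of 0.0816 in that limma test. With both H460C samples averaged into 1, which is then assumed to vary like the 2 H460R samples, limma still called ACTA2, CNN2, TPM1 and TPM2. The median difference over the 8 members was 0.11, and over all gene names 0.01.

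**Figure D4:**
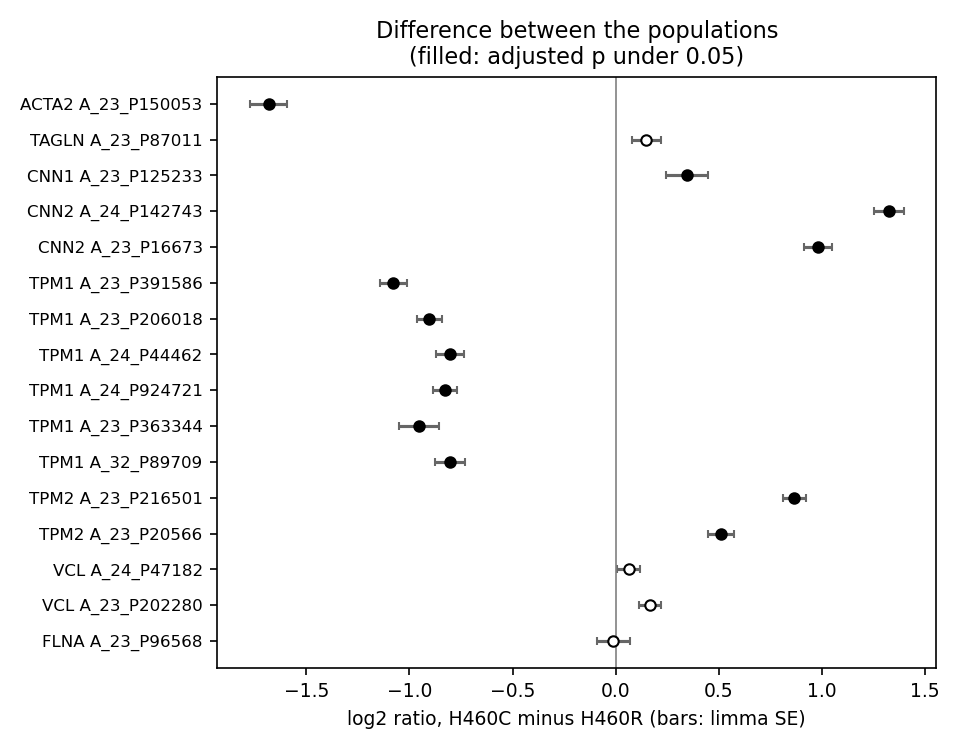
The difference between the populations for the 16 tested probes, H460C minus H460R on the log2 scale. Bars are standard errors from limma and filled points have an adjusted p under 0.05. ACTA2 lies at -1.68, the 6 TPM1 probes between -0.80 and -1.08, and the CNN2 probes at 1.32 and 0.98, while VCL, TAGLN and FLNA have open points near 0.

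Further genes of the actin machinery were taken from 6 lists of 63 genes in all, of which 58 had a tested probe. ACTA1, MYOCD, TAGLN3, MYLK and FLNC had none. Rank Products called none of the 58 in either population. Its unadjusted p was under 0.05 for 16 of them in H460C and for 7 in H460R, and limma called 47 and 43. Over all gene names the unadjusted shares were 19.2% and 18.6%, and limma called 36.5% higher and 34.5% lower in H460C and 36.5% higher and 32.5% lower in H460R, so the limma counts were near the background. In the direct limma comparison 21 were higher in H460C, 14 were lower and 23 were not called, beside 28% higher and 27.9% lower of all gene names, which is the background for each list that follows. Of the other actins, 1 of 3 was called, ACTC1 of cardiac muscle, with a log2 ratio of 0.48 in H460C and -0.41 in H460R and a difference of 0.89. As the mean over its 2 probes, the ACTC1 values were 0.31, -0.22 and 0.53. A flagged H460C array in Cy5 was left out at its brightest probe, and on the Cy3 arrays alone the difference was 0.79. ACTB and ACTG1, the actins of every cell, had H460C ratios of 0.56 and 0.61. Their differences of 0.60 (SE 0.23, limma adjusted p = 0.0795) and 0.35 (SE 0.20, limma adjusted p = 0.190) were not called. The SDs of the H460R samples were 0.50 and 0.44, and each gene lacked an H460C array to a flag. A change in these 2 genes may thus have been missed. Among SRF and its coactivators 1 of 4 was called, SRF itself, at 0.24 in H460C and -0.40 in H460R with a difference of 0.64 (limma adjusted p = 0.00374), while MRTFA and MRTFB differed by 0.08 and -0.15. As the mean over its 3 probes SRF was at 0.02 in H460C and its difference was 0.34, and the H460C value was 0.67 with median centring, 0.37 without H460C replicate 1 and 0.11 without H460C replicate 2. A flagged H460C array in Cy3 was left out for SRF, so its H460C mean does not hold each dye once per sample. In H460R SRF was at -0.60 in Cy3 and -0.21 in Cy5. On the Cy5 arrays alone the SRF difference was 0.51.

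The relatives of the tropomyosin, calponin and transgelin members came next. Of 9 tested, 5 were higher in H460C and 1 lower, and the median difference was 0.49. SMTN, smoothelin, differed most, at 1.35 in H460C and 0.22 in H460R (difference 1.13, limma adjusted p = 0.00268). TPM4 (0.86) and TAGLN2 (0.78) had differences near that of TPM2, and TMOD1, which caps the slow end of filaments, was the one called lower, by -0.90. Like TPM1, it lay below H460 in H460C (-0.86).

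In the myosin II group 4 of 13 were higher and 4 lower, with a median of 0.08. Among those called higher was MYH11, above background in 0 of 8 H460 channels and 3 of 4 H460R channels. MYH11 entered the test only through H460C, the group where it is high, so its call supports nothing here or among the 21. RHOB, a small GTPase, had the largest difference, 0.87 (limma adjusted p = 0.00131), from 0.60 in H460C and -0.27 in H460R. Of the focal adhesion and cross-linker genes beside VCL and FLNA, 3 of 13 were higher and 6 lower, with a median of -0.07. FHL2, a LIM protein of adhesions and of SRF complexes, was -1.17 lower (limma adjusted p = 0.000146), from -0.91 in H460C and 0.26 in H460R. Of 16 genes of filament turnover 7 were higher and 3 lower, with a median of 0.04. TMSB10, which binds actin monomers, was 1.49 above H460 in H460C and 0.08 in H460R, and its difference of 1.42 (limma adjusted p = 0.000106) was the only one of the 58 to pass the limma test for a difference beyond 1.

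**Figure D5:**
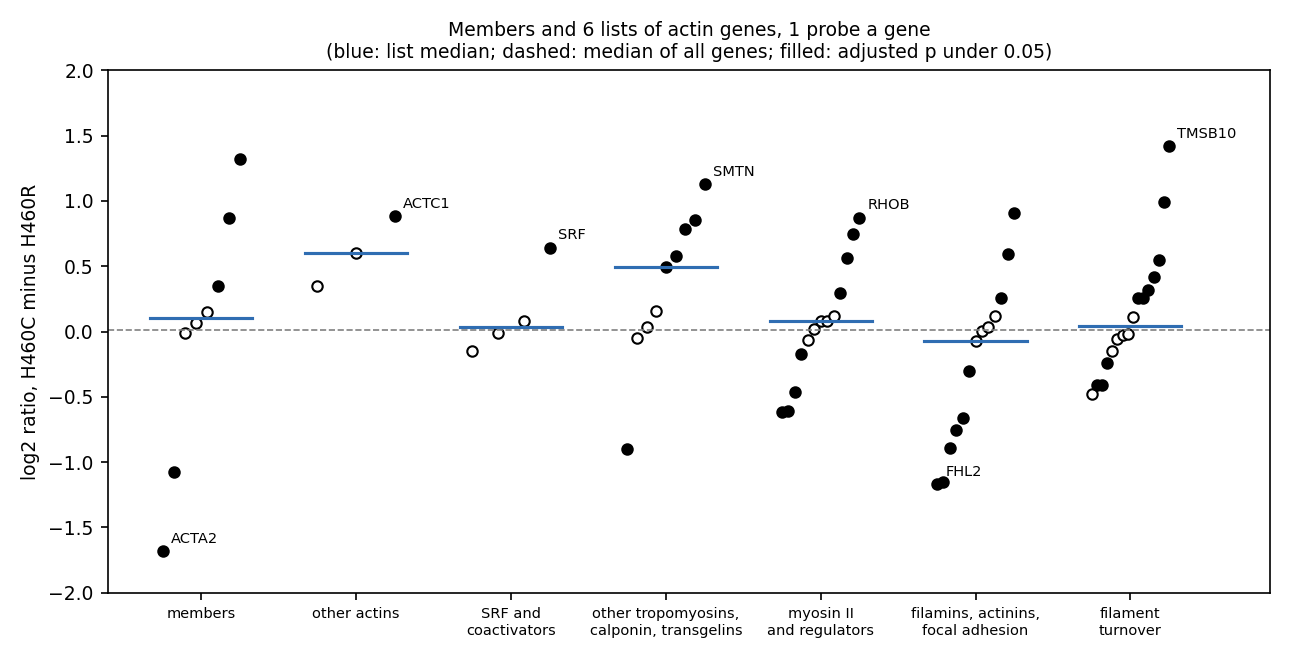
The difference between H460C and H460R on the log2 scale for the 8 tested members and the 58 genes of the 6 lists, 1 probe a gene. Filled points have a limma adjusted p under 0.05, blue lines are list medians, the dashed line is the median of all gene names (0.01), and the gene with the largest difference is named in each list. ACTA2 at -1.68 and TMSB10 at 1.42 lie furthest from 0.

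The genes whose ratios over the 8 arrays were nearest to those of ACTA2 were found by Euclidean distance. They were the transcripts AK074776 (0.407) and NM_032441 (0.427), for which no current symbol was matched here, and the genes TM7SF3 (0.430), TMX4 (0.530) and NMU (0.591). Their refitted means were between 1.46 and 1.73 in H460R and between -0.11 and 0.02 in H460C. None of the members or of the 58 list genes was among these 5.

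The promoters were read for the motif of SRF, the CArG box, because SRF is the shared regulator named for this set. Windows from 250 bases before to 50 after the start were taken from RefSeq (GRCh38.p14), and 8 of the 10 members had at least 1. TAGLN and MYL9 had none. An exact CArG box stood in 3 of these 8, CNN2, FLNA and ACTG2. By window, 3 of the members' 10 held it (30%), and 1.29% of all 35116 windows. As the motif is its own complement in form, both strands are covered. ACTA2 had no exact match in either of its 2 windows, which says only that these letters are not there. The ACTA2 run below holds ccctatatgg and ccttgtttgg, each 1 letter away from an exact box. Such near matches were not counted for any gene, so ACTA2 cannot be said to lack a CArG box. A match is a description of the sequence and not a measured binding site. CNN2 and ACTA2 are shown because they were the members furthest above H460 in H460C and in H460R. Both runs are the 250 bases before the start, 5′ to 3′ on the gene's strand, and capitals mark an exact CArG box.
CNN2, chr19:1026358-1026607, plus strand: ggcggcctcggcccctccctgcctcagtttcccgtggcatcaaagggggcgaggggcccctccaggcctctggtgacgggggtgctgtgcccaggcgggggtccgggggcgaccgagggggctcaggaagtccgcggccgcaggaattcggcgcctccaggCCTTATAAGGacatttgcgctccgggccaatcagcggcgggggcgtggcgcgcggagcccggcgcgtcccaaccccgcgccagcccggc
ACTA2, chr10:88952774-88953023, minus strand: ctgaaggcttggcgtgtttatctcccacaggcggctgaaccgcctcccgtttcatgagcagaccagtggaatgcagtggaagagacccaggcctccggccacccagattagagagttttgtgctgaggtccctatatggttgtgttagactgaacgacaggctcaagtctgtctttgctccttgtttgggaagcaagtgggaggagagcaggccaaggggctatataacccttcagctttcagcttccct

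The other members with an exact CArG box are shown around the box alone. ACTG2 holds a pair of them, from -110 to -101 and from -73 to -64 relative to the start, and FLNA holds 1, from -94 to -85. In CNN2 it lies from -89 to -80.
ACTG2, chr2:73892878-73892964, plus strand: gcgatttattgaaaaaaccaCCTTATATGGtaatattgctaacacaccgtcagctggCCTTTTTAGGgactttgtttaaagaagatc
FLNA, chrX:154374699-154374748, minus strand: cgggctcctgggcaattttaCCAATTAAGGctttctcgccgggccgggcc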

How the data were processed

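Total RNA was labeled with Cy3 and Cy5 and hybridized to Agilent whole human genome 4x44K arrays. The authors scanned the arrays and extracted spot intensities and log10 ratios with Feature Extraction 10.1.1.1. A table of processed log2 ratios was also deposited by the authors, whose normalization is not given in the sources used here. It correlated with the refit at 0.952 to 0.997 per array, its column medians were between -0.02 and 0, and each ratio was oriented as studied cells over H460 by the dyes in the labels.

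The refit used limma 3.58.1 in R 4.3.3 on the deposited median spot and background intensities: normexp with an offset of 50, loess within each array, control spots and outlier flags left out, and the arrays of a dye-swap pair averaged. Where an array of a pair was flagged at a probe, the other array alone gave the ratio. A probe was kept when, for H460C, H460R or H460, a share of at least 0.5 of its spots was well above background on every array with that RNA, and 26014 probes had all ratios. Each population was tested against 0 with exact Rank Products, higher and lower separately (Benjamini-Hochberg FDR of 0.05), and H460C against H460R with limma on 4 ratios (2 residual and 3.27 prior degrees of freedom, two-sided). A gene was read from its brightest tested probe. All p-values were adjusted over all tested probes, except the Rank Products p-values named as unadjusted. The Rank Products FDR or unadjusted p given for a gene is the smaller of its higher and lower tests.

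All members and probes are named, with the gene of largest difference in each list and the 5 genes nearest to ACTA2. The members and lists were chosen with earlier results of these data known. The tests were checked on simulated data, where limma missed part of the changes of 1 on the log2 scale, so a miss of that size may be a missed change. The alternatives tried were other background corrections, normalizations, filters and probe rules, the authors' table, single dye orientations, limma in place of Rank Products, a minimum difference of 1, a replicate block, and leaving out replicates. The log10 ratios of 1 deposited H460C array had lost their decimal points and were divided by 10 to the power of 9 for the alternative that uses them. The number of arrays limits the precision.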

Additional observations from a re-analysis of the deposited data

Results flagged for a closer look

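ACTA2 stood out among the 4 H460R arrays: the refitted log2 ratio was 1.96 for replicate 1 in Cy5 and between 1.48 and 1.49 on the other 3, and the gap took 0.992 of the range. ACTG2, which is dim, read -0.0002 for H460R replicate 2 in Cy5 and between 0.20 and 0.23 on the other 3 H460R arrays, with a gap of 0.873 of the range. In all 38 sets of 4 arrays were examined, and chance marks about 1 in 20 of them.

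The effect against H460 differed between H460C and H460R by limma for ACTA2 (-1.68), CNN1 (0.34), CNN2 (1.32), TPM1 (-1.08) and TPM2 (0.87), each as H460C minus H460R on the log2 scale. CNN1 was above background in no H460 or H460R channel and entered the test only through H460C.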

How the results depend on the processing

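The differences of ACTA2, CNN2, TPM1 and TPM2 between H460C and H460R kept their direction under every alternative run and their call under all but the limma test for a difference beyond 1, which called ACTA2 alone. Their ranges, that test aside, were -2.25 to -1.56 for ACTA2, 1.15 to 1.42 for CNN2, -1.14 to -0.90 for TPM1 and 0.69 to 0.99 for TPM2. The CNN1 call was also lost with a normexp offset of 0 (0.53), median centring (0.43) and the Cy5 arrays alone (0.31). The ACTA2 ratio in H460C turned to 0.019 with median centring and 0.011 on the Cy5 arrays. On the Cy3 arrays FLNA turned to 0.28 in H460C and 0.51 in H460R, RHOB to 0.23, FHL2 to -0.12 and TMSB10 to -0.0047 in H460R, and TMSB10 was -0.0125 in the authors' table. FLNA between the populations turned to 0.0498 with an offset of 0, 0.0139 with median centring and 0.20 on the Cy5 arrays, ran from -0.108 to 0.0853 when 1 replicate was left out (above 0 without H460C replicate 2), and it was called on the Cy3 arrays (-0.22, limma adjusted p = 0.0186). The cause was not tested.

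Members called in H460C rose from 0 to 6 with limma and to 2 with a minimum of 1. In H460R they rose from 0 to 6 and 1, to 1 (ACTA2) without the filter and to 1 (FLNA, -1.76, FDR 0.0172) on the Cy5 arrays. Between the populations the 5 fell to 1 with the minimum. Over all gene names, limma called 14428 in H460C against 215 by Rank Products (855 with the minimum) and 14008 in H460R against 197 (297 with the minimum). Between the populations, 11364 were called, and 6219 with median centring, 6715 on the Cy5 arrays and 688 with the minimum. Leaving out 1 replicate gave 9071 to 9968 genes and 4 to 5 members. Rank Products needs both replicates, so leaving out 1 gave values with no test.

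Samples with the same replicate number deviated together only weakly (r = 0.206 over 26014 probes), with 2 pairs. With the number as a replicate block 12260 genes and 5 members were called. No scaling moved the median of all probes by over 0.1.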
